A study of Homo sapiens with 10 samples.

Results

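Long noncoding RNAs (lncRNAs) are transcripts with no known or only limited protein-coding capacity, and several of them serve as readouts of the prostate lineage, of nuclear bodies and of stress. NEAT1, MALAT1, PCGEM1, PCA3, DRAIC, GAS5 and TUG1 were taken from the count table by gene symbol, which gave 7 of 57353 symbols. The rule names the genes and uses no threshold on a measured value, but the list was drawn up with earlier results of these data known. Of these, 6 were among the 17230 genes with enough counts to be tested, and PCGEM1 was left out because it had 0 counts in all 10 samples. NEAT1, MALAT1 and GAS5 were lower by between 1.88-fold and 3.39-fold both in cells with CPT1A knockdown and in cells over-expressing CPT1A, each against its own control, whereas TUG1 was lower by 1.26-fold and 1.20-fold.

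RNA was sequenced from LNCaP-C4-2 cells, a castration-resistant derivative of the LNCaP human prostate cancer line. NT cells (2 samples) carried a control shRNA lentivirus and KD cells (3 samples) an shRNA lentivirus against CPT1A, the mitochondrial enzyme that commits long-chain fatty acids to oxidation, and both were selected with 1 ug/ml puromycin. EV cells (2 samples) carried an empty lentiviral vector and OE cells (3 samples) a vector with CPT1A cDNA, and both were selected with 5 ug/ml of blasticidin (written "Blasticin" in the sample labels). There was 1 line of each kind and nothing says that samples of a line came from separate transductions, so the p-values measure the spread between these samples, which may be technical, and the drug cannot be told apart from the arm when EV is set against NT or OE against KD.

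NEAT1 is the scaffold of paraspeckles, nuclear bodies that form around it with a set of RNA-binding proteins and that grow in many kinds of stress. MALAT1, its neighbour on the chromosome, is an abundant nuclear RNA that gathers in nuclear speckles, where splicing factors are stored. GAS5 is spliced from a gene whose introns hold small nucleolar RNAs (snoRNAs), its spliced RNA is removed by nonsense-mediated decay while it is being translated, and it is known for accumulating in growth-arrested cells. PCA3, PCGEM1 and DRAIC are lncRNAs of prostate cells, of which PCA3 is measured in urine as a prostate cancer marker, PCGEM1 is androgen-regulated and DRAIC is repressed by androgen. TUG1 is a broadly expressed lncRNA.

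The libraries were made with an mRNA kit, which takes RNA with a stretch of A. Mature MALAT1 and the long form of NEAT1 end in a triple helix in place of a poly(A) tail, so stretches of A inside the genes were counted and some are shown here. Read on the sense strand of the GRCh38 genome within the GENCODE v44 gene models, MALAT1 held 1 run of at least 10 A, NEAT1 held 5, TUG1 held 2 and GAS5 and PCGEM1 held 0, while PCA3 held 3 and DRAIC 1. The longest run of each of 3 genes is printed in capitals within its flanks, from chr11:65506068-65506125 (plus strand) for MALAT1, chr22:30976034-30976096 (plus strand) for TUG1 and chr1:173867073-173867125 (minus strand) for GAS5.
MALAT1: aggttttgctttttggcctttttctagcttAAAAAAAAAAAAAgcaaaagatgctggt
TUG1: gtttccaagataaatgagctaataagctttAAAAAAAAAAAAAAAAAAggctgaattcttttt
GAS5: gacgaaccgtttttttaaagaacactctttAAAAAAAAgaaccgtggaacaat
The run was 13 bases long in MALAT1, 18 in TUG1 and 8 in GAS5. The longest run among these lncRNAs, 22 bases in NEAT1, is not printed. Whether any of these runs was used in library making was not tested.

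The genes of ribosomal proteins and several snoRNA hosts, GAS5 among them, start with a run of pyrimidines that ties their translation to growth signals. In the RefSeq promoter table (GRCh38.p14), the first 50 bases from the GAS5 start contain a run of 8 pyrimidines that opens with C, shown in capitals, which begins at base 32 of these 50 bases. This RefSeq start and the 50 bases after it lie wholly upstream of the GAS5 span in GENCODE v44, which ends at 173868882. The run thus does not begin at the annotated start, and whether it opens the transcribed RNA was not tested.
GAS5 from the annotated start: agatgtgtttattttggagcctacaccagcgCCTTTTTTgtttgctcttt
A run of at least 8 pyrimidines opening with C was counted wherever it began in the first 50 bases. It was found in 16.1% of 27305 genes, 36 of 65 ribosomal protein genes (55.4%), 3 of 17 snoRNA hosts (17.6%) and 1 of the 6 lncRNAs with an entry.

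The promoter windows, 250 bases before to 50 after each annotated start, were searched on both strands for 8 motifs. They were the CCAAT box (CCAAT), the TATA box as TATAAA, the E-box as CACGTG, the cyclic AMP response element as TGACGTCA, the amino acid response element as TGATGNAA, the steroid receptor half-site as AGAACA, the GC box as GGGCGG and the STAT motif as TTCNNGAA. Of the windows, 3 are shown because they belong to lncRNAs called lower in both arms and span the range of base composition among them, with motif matches in capitals.
MALAT1, chr11:65497488-65497787, plus strand: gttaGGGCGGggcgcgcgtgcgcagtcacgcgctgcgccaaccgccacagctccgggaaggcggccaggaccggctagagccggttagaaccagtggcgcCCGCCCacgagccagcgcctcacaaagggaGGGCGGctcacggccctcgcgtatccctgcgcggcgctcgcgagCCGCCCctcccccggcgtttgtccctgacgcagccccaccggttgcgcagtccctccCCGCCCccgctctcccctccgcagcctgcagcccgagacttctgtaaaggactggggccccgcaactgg
TUG1, chr22:30969015-30969314, plus strand: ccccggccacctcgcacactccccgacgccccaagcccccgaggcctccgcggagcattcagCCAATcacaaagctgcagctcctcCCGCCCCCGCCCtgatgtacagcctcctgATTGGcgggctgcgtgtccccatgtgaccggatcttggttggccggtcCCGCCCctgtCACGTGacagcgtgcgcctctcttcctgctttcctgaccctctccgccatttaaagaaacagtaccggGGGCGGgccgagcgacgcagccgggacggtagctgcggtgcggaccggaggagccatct
GAS5, chr1:173868996-173869295, minus strand: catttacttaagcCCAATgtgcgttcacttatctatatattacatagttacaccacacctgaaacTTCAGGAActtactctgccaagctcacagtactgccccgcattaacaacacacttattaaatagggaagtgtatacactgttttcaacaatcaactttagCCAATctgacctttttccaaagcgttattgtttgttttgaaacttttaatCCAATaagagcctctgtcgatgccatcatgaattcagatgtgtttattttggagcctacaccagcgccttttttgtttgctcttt
GC content was 73.7% in the MALAT1 window, 67.7% in that of TUG1 and 37.7% in that of GAS5, with 37, 28 and 5 CpG dinucleotides. The MALAT1 window matched the GC box, found in 45.0% of 35116 promoter windows. The TUG1 window matched the GC box, the CCAAT box (34.6% of windows) and the E-box (7.26%), and the GAS5 window matched the CCAAT box and the STAT motif (7.74%). A further MALAT1 window, chr11:65498795-65499094, matched the TATA box (11.5%) and the steroid receptor half-site (14.8%), the DRAIC window matched the CCAAT box, that of PCGEM1 matched the CCAAT box and the half-site, and the PCA3 windows matched none of the 8. The cyclic AMP (1.85% of windows) and amino acid (3.62%) response elements were in no window of these genes. A match is a string of letters and not a binding site.

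Depth was 23555205 to 28615770 counts per sample, at which 3 counts correspond to 0.0994 to 0.136 CPM (counts relative to the library total, scaled by the trimmed mean of M values, TMM). CPT1A itself was at 265 and 262 CPM in NT, 81.2 to 86.4 in KD, 325 and 317 in EV and 860 to 913 in OE, as labelled. All 8 luminal prostate markers were present (KLK3 at 2353 to 5941 CPM), with summed levels of 5799 to 6087 CPM in NT, 7948 to 8761 in KD, 7728 to 8120 in EV and 11074 to 11525 in OE. Of 9 markers of other cell types, PECAM1, COL1A2 and KRT5 were at 0 in all samples, PTPRC, DCN, TP63 and CHGA were at 0 in at least 8, and VWF and COL1A1 reached 9.45 and 15.6 CPM. Their sums were 16.3 to 16.9 CPM in NT, 21.8 to 23.6 in KD, 14.7 to 16.1 in EV and 19.7 to 21.7 in OE. Mitochondrial transcripts took 13.1% and 13.2% of counts in NT, 10.4% to 11.5% in KD, 12.5% in both EV samples and 12.7% to 13.6% in OE. KD replicate 2 stood furthest from its group (chi-square per degree of freedom over genes 6.80 and 7.0 against KD replicates 1 and 3, where other same-group pairs gave 2.04 to 4.47). In bulk RNA, fewer cells that express a gene and less RNA per cell cannot be told apart.

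MALAT1 had the highest CPM of the lncRNAs in every sample, before any division by length. It is encoded at chr11:65497640-65508073 on the plus strand (GRCh38), with a canonical transcript of 1 exon that spans the gene. Its level was 1784 and 1660 CPM in NT, 529, 457 and 536 in KD, 1126 and 1110 in EV, and 371, 312 and 426 in OE. Every KD sample was below every NT sample, every OE sample was below every EV sample, and the levels of the 4 lines did not overlap. How many of all tested genes separate in this way was not counted. Such separation, here and below, therefore describes the samples and does not compare the lncRNAs with other genes. Group means were 1722 ± 87.2 CPM (SD, n = 2) in NT, 507 ± 43.7 (n = 3) in KD, 1118 ± 10.9 (n = 2) in EV and 370 ± 56.6 (n = 3) in OE. KD was 3.39-fold below NT (log2 fold change -1.76 ± 0.08 SE, adjusted p = 3.79e-15, edgeR quasi-likelihood test with Benjamini-Hochberg adjustment). OE was 3.02-fold below EV (log2 fold change -1.60 ± 0.08 SE, adjusted p = 1.11e-13, edgeR). Only 1.66% of tested genes had a lower log2 fold change in KD versus NT, and 1.59% in OE versus EV. The control lines differed as well, with EV below NT by a log2 fold change of -0.62 (95% interval -0.80 to -0.44, edgeR adjusted p = 6.46e-06). OE was below KD by -0.46 on the log2 scale (95% interval -0.61 to -0.31, edgeR adjusted p = 8.1e-06). In raw counts, MALAT1 took 0.180% and 0.168% of the NT libraries and 0.0463% to 0.0565% of the KD libraries, and 0.114% and 0.113% of the EV libraries and 0.0293% to 0.0404% of the OE libraries.

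NEAT1 lies upstream of MALAT1 at chr11:65422774-65445540 on the plus strand and has a canonical transcript of 1 exon. Its short and long forms share their start and were counted as 1 gene, so they are not separated here. NEAT1 was at 329 and 358 CPM in NT, 173, 167 and 209 in KD, 387 and 348 in EV, and 210, 149 and 192 in OE. All 6 KD and OE samples were below all 4 control samples, and the KD and OE ranges overlapped. The fold change was 1.88-fold downward in KD versus NT (log2 fold change -0.91 ± 0.09 SE, edgeR adjusted p = 1.09e-08) and 2.00-fold downward in OE versus EV (-0.997 ± 0.09, edgeR adjusted p = 5.66e-09). Unlike those of MALAT1, the 2 control lines were within 0.10 of each other on the log2 scale (EV versus NT, 95% interval -0.12 to 0.31, edgeR adjusted p = 0.514). OE and KD were within 0.01 (95% interval -0.17 to 0.18, edgeR adjusted p = 0.96). Thus the order of NEAT1 levels was KD and OE, which did not differ beyond their spread, then NT and EV, which did not either, whereas MALAT1 was ordered OE, KD, EV, NT, with OE below KD and EV below NT past the test and KD not tested against EV.

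**Figure D1:**
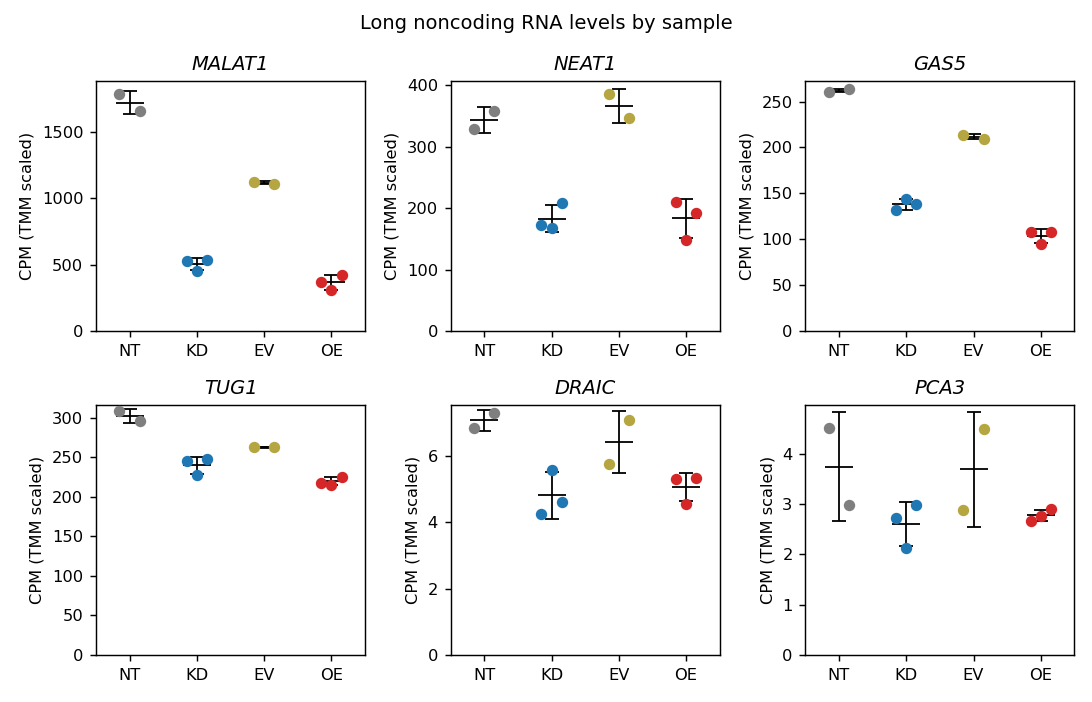
Level of each lncRNA by sample (y axis, TMM-scaled CPM from 0; x axis, the 4 lines), with points for samples and horizontal lines with bars for the mean ± SD of 2 or 3 samples. MALAT1, NEAT1 and GAS5 were lower in all KD and OE samples than in all NT and EV samples, while the DRAIC and PCA3 points lie close together at a few CPM. The share of all tested genes that separate in this way was not counted.

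GAS5 is encoded at chr1:173858559-173868882 on the minus strand, with 12 exons in its canonical transcript. It overlaps ZBTB37 on the opposite strand, and GAS5-AS1 lies inside it, so that reads of these genes could be mixed if strand was not used in counting. GAS5 was at 261 and 263 CPM in NT, 131.8, 144 and 138.6 in KD, 214 and 210 in EV, and 108, 94.6 and 108 in OE. The 4 lines did not overlap and held the same order as for MALAT1. Group means were 262 ± 1.93 CPM in NT (SD, n = 2), 137.98 ± 5.95 in KD (n = 3), 212 ± 2.90 in EV (n = 2) and 103 ± 7.70 in OE (n = 3). KD was 1.90-fold below NT (log2 fold change -0.92 ± 0.05 SE, edgeR adjusted p = 3.07e-13) and OE was 2.04-fold below EV (-1.03 ± 0.05, edgeR adjusted p = 2.84e-13). EV was below NT by -0.31 on the log2 scale (95% interval -0.43 to -0.19, edgeR adjusted p = 0.000219) and OE was below KD by -0.41 (-0.52 to -0.31, edgeR adjusted p = 1.17e-07). The share of counts from ribosomal protein genes moved in the same direction in both arms, from 9.04% and 9.06% in NT to between 6.07% and 6.50% in KD, and from 7.45% and 7.31% in EV to between 6.57% and 6.87% in OE. Its part in the GAS5 result was not tested.

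TUG1, at chr22:30969245-30979395 on the plus strand, is typed as protein coding in GENCODE v44. Its level was 309 and 296 CPM in NT, 245, 228 and 247 in KD, 262 and 263 in EV, and 218, 215 and 225 in OE. Every KD sample was below every NT sample and every OE sample was below every EV sample, by less than for the 3 lncRNAs above. The log2 fold change was -0.33 ± 0.05 SE in KD versus NT (1.26-fold lower, edgeR adjusted p = 1.3e-06) and -0.26 ± 0.05 in OE versus EV (1.20-fold lower, edgeR adjusted p = 5.97e-05). Of all tested genes, 31.1% had a lower log2 fold change than TUG1 in OE versus EV. The differences of EV from NT (log2 fold change -0.20, edgeR adjusted p = 0.00336) and of OE from KD (-0.13, edgeR adjusted p = 0.0117) passed as well, but the first was lost without NT replicate 1 (adjusted p = 0.0614) and the second without KD replicate 1 (0.0635) or KD replicate 3 (0.0647), all in edgeR fits.

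The prostate lncRNAs were far lower. DRAIC, at chr15:69462921-69843120 on the plus strand, had 101 to 184 counts per sample. Its level was 6.86 and 7.30 CPM in NT, 4.25, 5.60 and 4.61 in KD, 5.77 and 7.09 in EV, and 5.30, 4.57 and 5.34 in OE, with no overlap within either arm. DRAIC fell in KD versus NT (log2 fold change -0.56 ± 0.13 SE, 1.47-fold lower, edgeR adjusted p = 0.00103). In OE versus EV the log2 fold change was -0.34 ± 0.14 (1.26-fold lower), which passed narrowly (edgeR adjusted p = 0.045) and was lost under limma-voom (0.0559), DESeq2 (0.117), a replicate block (0.0557) and without EV replicate 2 (log2 fold change -0.18, edgeR adjusted p = 0.442). The adjusted p of DRAIC in OE versus EV ranged from 0.0133 to 0.442 over all alternatives.

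PCA3, at chr9:76691980-76863307 on the plus strand, lies within the span of PRUNE2 (chr9:76611376-76906114), which is read from the opposite strand. PCA3 had 120 and 75 counts in NT, 71, 54 and 90 in KD, 74 and 111 in EV, and 67, 61 and 75 in OE, or 4.52 and 2.98 CPM in NT, 2.13 to 2.98 in KD, 2.88 and 4.50 in EV and 2.67 to 2.90 in OE. The groups overlapped in both arms. Its log2 fold change was -0.52 ± 0.20 SE in KD versus NT (edgeR adjusted p = 0.031), a call that was lost without NT replicate 1 (-0.18, edgeR adjusted p = 0.591), without KD replicate 2 (-0.40, edgeR adjusted p = 0.0905) and in DESeq2 (adjusted p = 0.0698). In OE versus EV it was -0.41 (95% interval -0.83 to 0.02, edgeR adjusted p = 0.102), and it passed without EV replicate 1 (-0.68, edgeR adjusted p = 0.0192). PRUNE2 had a mean of 1499 CPM over the 10 samples and was 1.30-fold lower in KD than NT (log2 fold change -0.38, edgeR adjusted p = 1.12e-07), with 0.09 in OE versus EV (edgeR adjusted p = 0.0975). Whether the counting used strand is not given in the sources used here, so reads of both genes could not be told apart. PCGEM1, at chr2:192749845-192776899 on the plus strand, had 0 counts in every sample, which for counting error alone allows up to 3 counts, or at most 0.136 CPM, in any of them. Whether the annotation or the counting set these zeros was not tested, so they are no limit on the level of the RNA itself.

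As a set, 5 of the 6 tested lncRNAs were called in OE versus EV (adjusted p under 0.05), all of them lower, where 52% of all tested genes were called and 26.4% were called lower. In KD versus NT all 6 were called lower, against 57.5% of tested genes called and 28.4% called lower. With so many genes called, the sizes are given as well. The median log2 fold change of the 6 was -0.73 in KD versus NT and -0.70 in OE versus EV, where the median of all tested genes was -0.02 in each. The 6 ran from -1.76 (MALAT1) to -0.33 (TUG1) in KD versus NT and from -1.60 (MALAT1) to -0.26 (TUG1) in OE versus EV. Since the list was drawn up with earlier results of these data known, its medians are a description and not a test. In EV versus NT 3 were called lower (34% of tested genes called, 15.5% lower), namely MALAT1, GAS5 and TUG1, with a median over the 6 of -0.17. In OE versus KD the same 3 lncRNAs were called lower (59.8% of genes called, 30.6% lower), with a median of -0.06. Without KD replicate 2, a fit for which the share of all tested genes is not given, 5 were called lower in KD versus NT. The log2 fold changes were then -1.69 for MALAT1, -0.95 for GAS5 and -0.84 for NEAT1.

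The arms share no samples, so their changes can be set side by side. Of 17230 tested genes, 2191 (12.7%) were called lower in both arms, and MALAT1, NEAT1, GAS5, TUG1 and DRAIC were among them. Of these 2191 genes, 197 (1.14% of all tested genes) were at least 2-fold lower in both arms, with MALAT1 as the only one of the 6. The interaction, which is the OE versus EV log2 fold change minus that of KD versus NT, was called for 0 of the 6 by edgeR (44.3% of tested genes were called and 24% were called below 0), with 0 of 6 at an unadjusted p under 0.05 and 0 called by limma-voom and by DESeq2. It was 0.17 for MALAT1 (95% interval -0.07 to 0.40), -0.09 for NEAT1 (-0.37 to 0.19), -0.11 for GAS5 (-0.26 to 0.05) and 0.08 for TUG1 (-0.06 to 0.21). For DRAIC it was 0.22 (-0.18 to 0.62) and for PCA3 0.11 (-0.48 to 0.71), intervals wide enough to hold most of their change in either arm. CPT1A, which moved in opposite directions in the arms (1.45 in OE versus EV, -1.64 in KD versus NT), had an interaction of 3.09. A larger fall of MALAT1 in KD passed without OE replicate 2 (0.27, edgeR adjusted p = 0.0172).

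**Figure D2:**
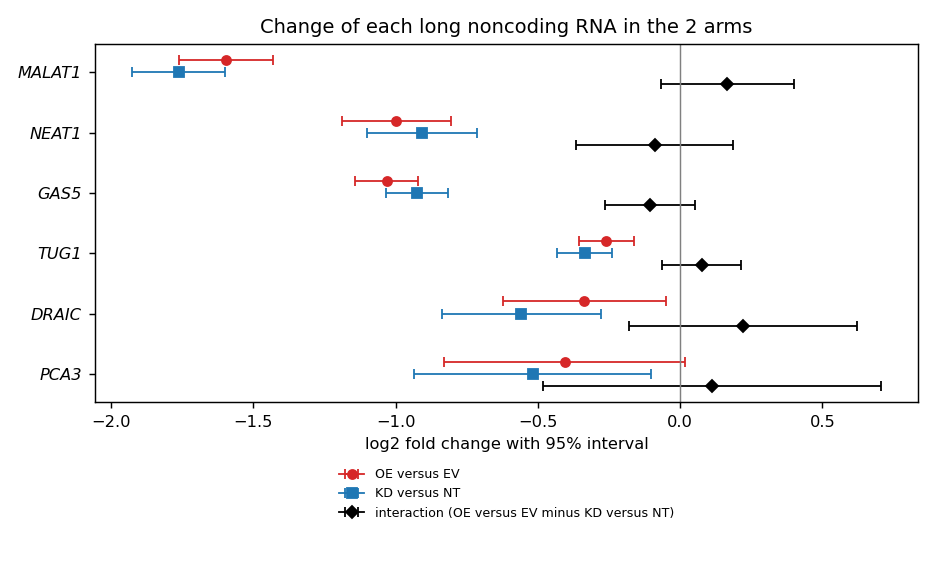
Log2 fold change of each lncRNA (x axis) with its 95% interval in OE versus EV (circles) and KD versus NT (squares), and the interaction (diamonds). The MALAT1, NEAT1, GAS5, TUG1 and DRAIC intervals lie below 0 in both arms, that of DRAIC reaching -0.05 in OE versus EV. The PCA3 interval reaches 0.02 in OE versus EV, and all 6 interaction intervals include 0.

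**Figure D3:**
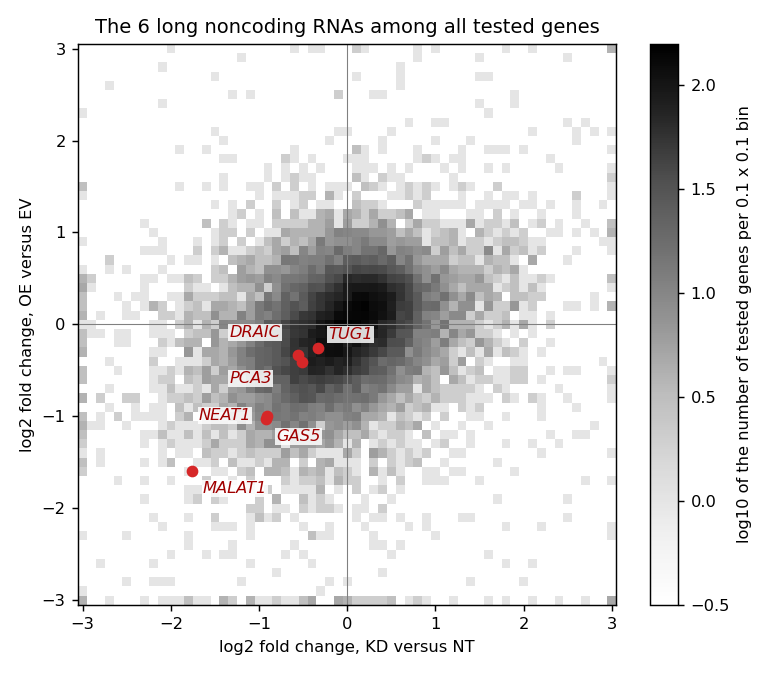
Log2 fold changes of all 17230 tested genes in KD versus NT (x axis) and OE versus EV (y axis), shaded by the log10 number of genes in each bin, with larger changes placed at the edge of the plot. The 6 lncRNAs (red points) lie in the lower left quadrant, with MALAT1 at -1.76 and -1.60 furthest out.

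Since genes of different length can be compared only per length, levels were also divided by the GENCODE exon length. Over 10 samples and per kilobase of merged exons, the mean level was 79.7 CPM for MALAT1, 33.9 for GAS5, 24.7 for TUG1 and 11.1 for NEAT1, with PCA3 at 0.219 and DRAIC at 0.180. Per kilobase of the canonical transcript, GAS5 came first at 218, since its canonical length of 768 bases is far below its merged exon length of 4932. MALAT1 and NEAT1, each with 1 canonical exon, kept 79.7 and 11.1, and TUG1 came to 33.6, DRAIC to 2.59 and PCA3 to 1.31. The place of GAS5, and the order of DRAIC and PCA3, thus depended on the length used. Divided by its full length of 22767 bases, NEAT1 was below MALAT1 per kilobase in every line. The levels were 15.1 against 165 CPM per kilobase in NT and 8.07 against 35.4 in OE. Reads of its short form were not separated and would call for a smaller divisor, and the level of NEAT1 with such a divisor was not computed.

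Paraspeckle proteins, which bind NEAT1, were called in both directions. In OE versus EV, 6 of 18 were called higher and 6 lower (median log2 fold change -0.02), and in KD versus NT 11 were called higher and 3 lower (median 0.28, where the median of all tested genes was -0.02). Of all tested genes, 52% were called and 26.4% called lower in OE versus EV, and 57.5% and 28.4% in KD versus NT. The list was not tested as a set. The 3 most abundant were HNRNPA1, HNRNPK and NONO. NONO, a core paraspeckle protein, was higher in OE (log2 fold change 0.22, edgeR adjusted p = 0.000275) and at -0.08 in KD versus NT (edgeR adjusted p = 0.138). HNRNPA1, a splicing regulator, was lower in KD (-0.29, edgeR adjusted p = 7.34e-06) and at 0.05 in OE versus EV (edgeR adjusted p = 0.343). HNRNPK, which is needed for paraspeckle formation, was at -0.04 and -0.05 (edgeR adjusted p = 0.409 and 0.356).

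Of 16 nuclear speckle proteins, where MALAT1 gathers, 1 was called higher and 7 lower in OE versus EV (median -0.11), and 7 higher and 6 lower in KD versus NT (median 0.05). The shares of all tested genes were 52% called and 26.4% lower in OE versus EV, and 57.5% and 28.4% in KD versus NT. The speckle scaffolds SRRM2 and SON, the most abundant, were at 0.10 and -0.01 in OE versus EV (edgeR adjusted p = 0.0519 and 0.805) and at 0.23 and 0.10 in KD versus NT (edgeR adjusted p = 0.000109 and 0.0504). RNPS1, a splicing activator, rose in both arms (0.38 and 0.41, edgeR adjusted p = 3e-07 and 4.5e-08).

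Other snoRNA host genes share the gene structure of GAS5. In OE versus EV, 10 of 21 were called lower and 6 higher (median log2 fold change -0.22), where 26.4% of all tested genes were called lower. In KD versus NT, 13 were called lower and 3 higher (median -0.32), where 28.4% of all tested genes were called lower. The list was not tested as a set. Between the controls, 16 of the 21 were called lower in EV than in NT (median -0.32), where 15.5% of all tested genes were called lower. The 3 most abundant hosts did not share the fall of GAS5 in both arms. SNHG16 rose in OE and KD (0.26 and 0.41, edgeR adjusted p = 0.000109 and 1.23e-07), SNHG14 was at -0.28 in OE against EV and 0.28 in KD against NT (edgeR adjusted p = 0.000189 and 0.000207), and DANCR was at 0.32 and -0.25 (edgeR adjusted p = 0.000103 and 0.000857). Of 14 factors of nonsense-mediated decay, 7 were called higher and 5 lower in OE versus EV (median 0.14), and 6 higher and 3 lower in KD versus NT (median 0.10). UPF1, the central helicase of this decay, was higher in both arms (0.32 and 0.45, edgeR adjusted p = 3.17e-05 and 2.27e-07). CASC3, of the exon junction complex, had log2 fold changes of 0.18 in OE against EV and 0.12 in KD against NT.

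Among other broadly expressed lncRNAs, 13 of 17 were called lower and 0 higher in OE versus EV (median log2 fold change -0.65), and 10 were called lower and 2 higher in KD versus NT (median -0.16). Over all tested genes, 52% were called and 26.4% called lower in the OE arm, and 57.5% and 28.4% in the KD arm, and this list was not tested as a set either. The 3 most abundant, NORAD, OIP5-AS1 and HCG18, fell in both arms. NORAD, which sequesters Pumilio proteins, was at -0.27 in OE against EV and -0.16 in KD against NT (edgeR adjusted p = 8.99e-05 and 0.00926). OIP5-AS1 was at -0.12 and -0.13 (edgeR adjusted p = 0.0442 and 0.019) and HCG18 at -0.28 and -0.58 (edgeR adjusted p = 0.000446 and 1.27e-08).

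Other prostate lncRNAs did not follow a single direction. In OE versus EV, 3 of 9 tested were called higher and 3 lower (median -0.03), and in KD versus NT 3 higher and 4 lower (median -0.14). The shares of all tested genes were 52% called and 26.4% lower in OE versus EV, and 57.5% and 28.4% in KD versus NT. LINC00963 was higher in OE (0.44, edgeR adjusted p = 3.2e-07) and at -0.09 in KD versus NT (edgeR adjusted p = 0.136), CTBP1-AS was lower in both (-0.51 and -0.27, edgeR adjusted p = 0.000304 and 0.039), and SCHLAP1 was lower in OE and higher in KD (-0.28 and 0.33, edgeR adjusted p = 0.0216 and 0.00531). Of 12 genes of the androgen axis, 6 were called higher and 5 lower in OE versus EV (median 0.16), and 10 higher and 1 lower in KD versus NT (median 0.57). The shares of all tested genes just given apply here too, and neither list was tested as a set. KLK3, the gene of prostate-specific antigen, rose in both arms (0.77 and 0.85, edgeR adjusted p = 5.12e-11 and 2.03e-12), as did KLK2, which encodes a related kallikrein (0.72 and 0.78), whereas the serine protease gene TMPRSS2 was lower in OE (-0.16, edgeR adjusted p = 0.0138) and higher in KD (0.43, edgeR adjusted p = 2.37e-07).

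**Figure D4:**
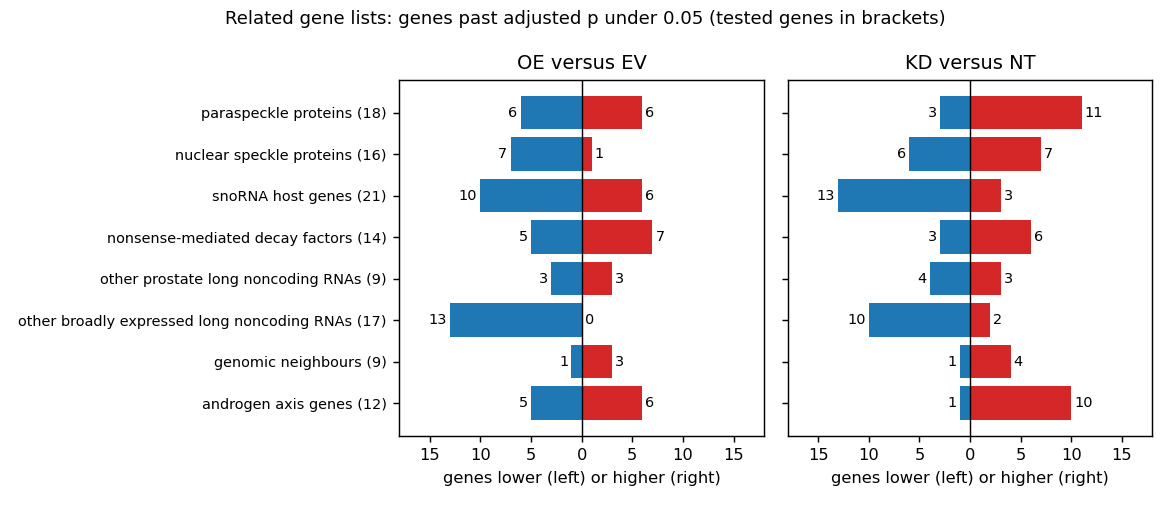
Number of genes in each related list called lower (bars to the left) or higher (bars to the right) in OE versus EV and KD versus NT at an adjusted p under 0.05, with the number tested in brackets. The other broadly expressed lncRNAs had 13 genes lower and 0 higher in OE versus EV, and the snoRNA hosts 13 lower and 3 higher in KD versus NT.

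Of the tested genes around the lncRNAs, none was called lower in both arms, where 12.7% of all tested genes were. Of these 9 genomic neighbours, 3 were called higher and 1 lower in OE versus EV (median 0.09), and 4 higher and 1 lower in KD versus NT (median 0.11). The shares of all tested genes were 52% called and 26.4% lower in OE versus EV, and 57.5% and 28.4% in KD versus NT. Around NEAT1 and MALAT1, the carrier gene SLC25A45 rose in both arms (0.52 and 0.22). LTBP3, a binding protein of latent TGF-beta, was higher in OE (0.14, edgeR adjusted p = 0.0324) and at 0.00 in KD versus NT, and FRMD8 was higher in KD (0.49, edgeR adjusted p = 4.05e-07) and at -0.02 in OE versus EV. Beside GAS5, ZBTB37 was lower in OE (-0.42, edgeR adjusted p = 9.98e-06) and at -0.12 in KD versus NT, and GAS5-AS1 was at 0.55 and -0.29 (edgeR adjusted p = 0.169 and 0.47). MORC2, beside TUG1, was at 0.08 and 0.11 (edgeR adjusted p = 0.165 and 0.0547).

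Genes with the most similar pattern were found by the root mean square distance of log2 CPM, centred on each gene's mean, over the 10 samples, among tested genes with an average log2 CPM of at least 1. For NEAT1 these were ATM (distance 0.120), AC060780.1 (0.133) and AC015813.1 (0.146), where the SD of NEAT1 itself was 0.494. For MALAT1 (SD 0.876) they were GOLGA8A (0.164), BMP6 (0.193) and WNT5A (0.222), and for GAS5 (SD 0.519) NEIL1 (0.0835), EIF3E (0.0858) and PGGHG (0.0870). TUG1, with an SD of 0.171, was nearest to ZNF664 (0.0319), ZMYM4 (0.0326) and EIF4G3 (0.0359). DRAIC (SD 0.258) was nearest to NMNAT3 (0.0653), SAMD15 (0.0985) and AC055713.1 (0.10), and PCA3 (SD 0.310) to AKAP6, MBNL3 and ZBTB20, each at 0.159. Among the lncRNAs themselves, DRAIC and TUG1 were closest (0.182), followed by NEAT1 and GAS5 (0.235), and MALAT1 and TUG1 were furthest apart (0.711). The distance is a description of these samples and small distances are easier to reach for genes that vary little.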

How the data were processed

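RNA was measured in 10 samples of 4 lines. The deposited values are raw counts per gene symbol, which the authors made by trimming read pairs with BBDuk, dropping reads under 50 bases, mapping with STAR 2.6.0a and counting against the Ensembl hg38.p12 transcriptome. Whether strand was used and how multiply mapped reads were handled is not given in the sources used here. Samples were grouped by their titles, and 0 count columns were left out.

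Counts were filtered with filterByExpr, put on a TMM scale and compared by the quasi-likelihood test of edgeR 4.0.16 (R 4.3.3; all 10 samples, 1 mean per line), with Benjamini-Hochberg adjustment over all tested genes and calls at an adjusted p under 0.05. The standard error is the log2 fold change divided by the square root of F, and intervals use the residual degrees of freedom after moderation. edgeR's common biological coefficient of variation came to 0.0446. The code was tested on simulated data. DESeq2 1.42.0, limma-voom (limma 3.58.1), other scalings and filters, a replicate block and leaving out each sample were alternatives. Counting error limits DRAIC and PCA3 most.

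The lncRNAs and lists were chosen with earlier results of these data known. Named genes were the 7 lncRNAs, CPT1A, the 3 tested genes of each list with the highest mean CPM, all tested genomic neighbours and the 3 genes nearest in pattern to each lncRNA. Some items that this rule names are not reported here. Positions come from GENCODE v44 on GRCh38, which may differ in gene models from the authors' Ensembl release, and promoter windows from RefSeq (GRCh38.p14), in which 6 of the 7 lncRNAs matched and NEAT1 did not.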

Additional observations from a re-analysis of the deposited data

How the results depend on the processing

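MALAT1, NEAT1 and GAS5 kept their direction and their call in both arms under every alternative. Scaling by library size alone, which shifted the median of all genes to -0.12 in OE versus EV, -0.15 in OE versus KD and -0.15 in the interaction, called 1 interaction (GAS5, -0.24, adjusted p = 0.0137) and gave opposite signs from TMM for NEAT1 (-0.12), PCA3 (-0.050) and DRAIC (-0.049) in OE versus KD and for PCA3 (-0.023) and TUG1 (-0.060) in the interaction. NEAT1 in OE versus KD was -0.0021 with at least 10 counts in every sample and -0.0017 in limma-voom. At an adjusted p under 0.0001, 4 lncRNAs were called in OE versus EV, 4 in KD versus NT, 1 in EV versus NT and 2 for OE against KD. Shares of all tested genes called are not given for this limit or for the other alternatives. These counts therefore do not compare the lncRNAs with other genes. The call of DRAIC in OE versus EV was also lost with DESeq2 size factors (0.0545) and no filter (0.0622), and that of PCA3 in KD versus NT with library size alone (0.0628). Same-numbered samples did not deviate together (13 pairs, r from -0.044 to 0.078), and the replicate block left 4 called in OE versus EV, 6 in KD versus NT, 3 in EV versus NT, 3 in OE versus KD and 0 in the interaction. With each sample left out in turn, 4 to 6 were called in OE versus EV, 5 to 6 in KD versus NT, 2 to 3 both in EV versus NT and for OE against KD, and 0 to 1 in the interaction. Over those leave-outs the log2 fold change of PCA3 ran from -0.38 to 0.31 in EV versus NT, from -0.042 to 0.20 in OE versus KD and from -0.23 to 0.46 in the interaction, and that of NEAT1 ran from -0.10 to 0.14 in OE versus KD and from -0.20 to 0.041 in the interaction. The cause of these changes was not tested.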

Other observations

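The lower levels in both arms were set beside lncRNAs as a class, by GENCODE v44 gene type and without the 6 tested lncRNAs described above. Of 847 other tested genes whose symbol is typed only as lncRNA, 17.6% were called lower and 17.4% higher in OE versus EV (median log2 fold change -0.03). In KD versus NT 33.2% of them were called lower and 10.7% higher (median -0.23). Of 12557 protein-coding genes, 30.3% were called lower and 29.3% called higher for OE against EV (median -0.02), and 29.1% lower and 36% higher in KD versus NT (median 0.04). A further 3820 tested genes had another type or no matching symbol, so some lncRNAs may be among them. Of these, 15.3% were called lower and 15.4% higher in OE versus EV, and 24.8% and 10.8% in KD versus NT. The log2 ratio of MALAT1 to NEAT1 counts was 2.44 and 2.21 in NT, 1.36 to 1.61 in KD, 1.54 and 1.68 in EV, and 0.82 to 1.15 in OE, so that it did not overlap within either arm, whereas the KD and EV ranges overlapped.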
